A study of Mus musculus with 2 samples.

Results

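Toll-like receptors, with the co-receptor CD14 and the adaptor MyD88, were examined in regenerating mouse muscle as 10 genes chosen by symbol: Tlr1, Tlr2, Tlr4, Tlr6, Tlr7, Tlr8, Tlr9, Tlr13, Cd14 and Myd88. They are 10 of 19938 genes that had a probe set carrying their symbol alone, and each of the 10 had exactly 1 such probe set. RNA came from the right tibialis anterior, a hindlimb muscle, of Mef2a -/- (Mef2a KO) and Mef2a +/+ (wild type) mice of 129Sv/C57BL6 background, 2 to 4 months old and of both sexes. All mice of both groups had received 50 µl of 10 µM cardiotoxin, a snake venom toxin that kills muscle fibres, 7 days before. RNA of 5 mice per genotype was pooled and put on 1 array per pool, so every value below is 1 measurement with no replicate error, and no test or p-value can be given. The labels do not say how the Mef2a allele was made or which part of the gene it lacks. Mef2a itself read 8.92 for wild type and 9.06 for the other pool, which is therefore called by its label here, the KO-labelled pool.

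Toll-like receptors recognise molecules of microbes and of damaged cells. TLR1, TLR2, TLR4 and TLR6 sit on the cell surface, where they bind lipopeptides and lipopolysaccharide, whereas TLR7, TLR8, TLR9 and TLR13 sit in endosomes and bind nucleic acids. All of these receptors signal through MyD88 to IRAK kinases and NF-kB, and in injured muscle macrophages are a well-known site of their expression. In RNA of whole muscle, fewer cells of a type and less RNA per cell cannot be told apart.

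Values are log2 RMA expression values, and a difference is the KO-labelled value minus the wild type value. A gene was taken as measurable if at least 1 of the 2 pools reached 4.395, the median over every probe set and both arrays, called the floor here. Among 11787 measurable genes, 6.45% passed 1.5-fold upwards in the KO-labelled pool and 1.90% downwards, and their median difference was 0.03. Among the 10 genes studied, 8 were measurable, and these 8 reached the floor in both pools, so none was counted only through its higher value. At least 1.5-fold higher were 5 of the 8 (Tlr2, Tlr7, Tlr8, Tlr13 and Cd14), against that background of 6.45%. None was 1.5-fold lower. The median difference of all 10 genes was 0.65.

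**Figure D1:**
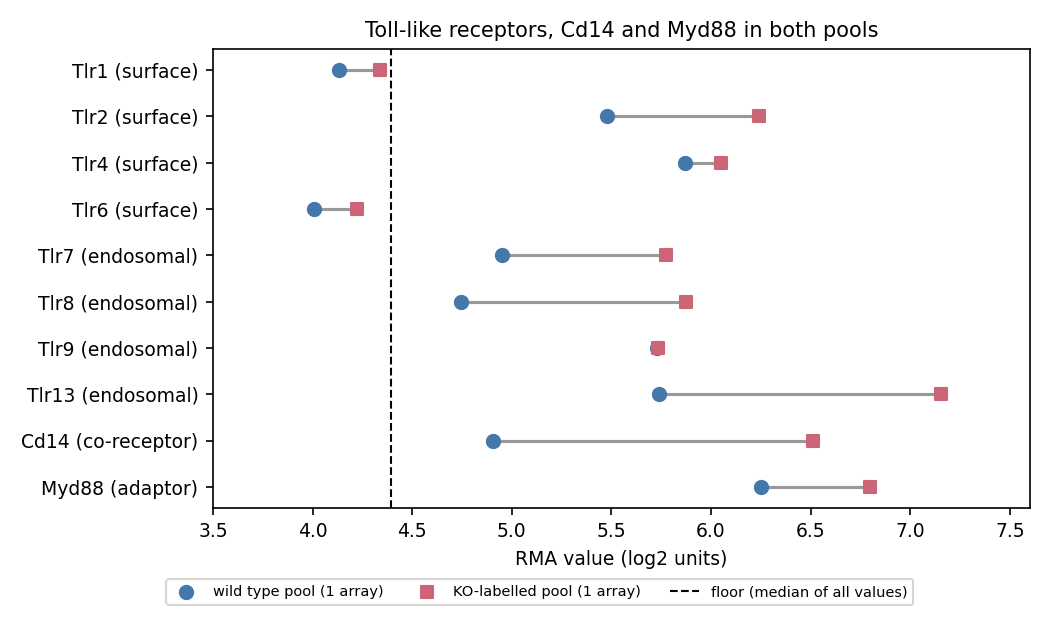
Log2 RMA value (x axis) of each of the 10 genes in the wild type pool (circles) and the KO-labelled pool (squares), 1 array each, with the floor of 4.395 as a dashed line. Cd14 and Tlr13 have the longest lines between pools, Tlr9 has almost none, and Tlr1 and Tlr6 lie left of the floor in both pools.

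The surface receptors differed little apart from Tlr2. Tlr2, which pairs with TLR1 or TLR6 to bind bacterial lipopeptides, read 5.48 in wild type and 6.24 in KO-labelled RNA. This is a 1.70-fold higher value and the difference ranked 416 among the 11787 measurable genes, counted from the highest. Its partners were below the floor in both pools. Tlr1 read 4.13 and 4.34, and Tlr6 4.01 and 4.22, wild type first. Their differences of 0.20 and 0.22 were smaller than 1.5-fold, and values this low can understate true differences. Tlr4, the lipopolysaccharide receptor, was measurable at 5.87 and 6.05, a difference of 0.18 that ranked 3548.

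The endosomal receptors were all measurable and split into 3 that were higher and 1 that was nearly equal. Tlr13, which recognises bacterial ribosomal RNA in mice, read 5.74 in wild type and 7.16 in KO-labelled RNA, 2.67-fold higher (rank 60). Tlr8, whose product is an endosomal receptor for RNA, read 4.75 and 5.87, 2.18-fold higher (rank 137). Tlr7, a receptor for single-stranded RNA, read 4.95 and 5.77, 1.77-fold higher (rank 348). Tlr9, the receptor for unmethylated CpG DNA, read 5.73 in both pools, with a difference of 0.01 (rank 6220). Among these 4 alone, the 3 RNA receptors stood on one side of the 1.5-fold limit and the only DNA receptor on the other. Tlr3, an endosomal RNA receptor outside the 10 genes, differed by 0.20 but was below the floor in both pools. The differences of Tlr13 and Tlr9 lay 1.41 log2 units apart. Tlr7, Tlr8 and Tlr13 are also the X-linked ones of the 10 genes, so ligand type and chromosome cannot be told apart among these 4. Tlr3 lies on chromosome 8, but its values are too low to separate them.

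Set against each other, the endosomal receptors had the larger median difference, but the groups overlapped. The median was 0.21 over the 4 surface receptors and 0.97 over the 4 endosomal ones, a gap of 0.76 log2 units. The surface median was set by Tlr1 (0.20) and Tlr6 (0.22), which were below the floor in both pools. Tlr9 lay below every surface receptor, and Tlr2 (0.76) lay close to Tlr7 (0.82). The gap had the same direction but was smaller in other ways of taking it. It was 0.50 with means in place of medians and 0.50 with the 2 measurable surface receptors alone. It was 0.30 when Tlr3 and Tlr12, other endosomal receptors, were added. Both were below the floor in the 2 pools, Tlr3 at 3.62 and 3.82 and Tlr12 at 3.45 in each. Tlr5 and Tlr11 were not analysed here. With 4 genes a group and 1 array a genotype, the gap describes these arrays and was not tested.

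**Figure D2:**
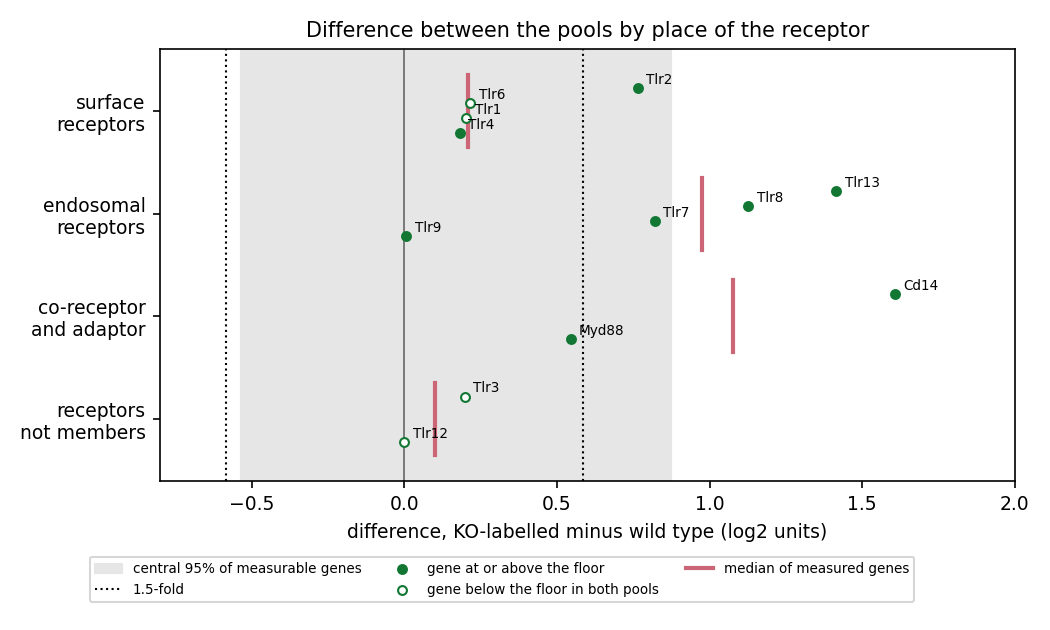
Difference between the pools in log2 units (x axis) for surface receptors, endosomal receptors, Cd14 with Myd88, and the receptors outside the 10 genes; open points lie below the floor in both pools, red bars are medians, dotted lines mark 1.5-fold and the grey band holds the central 95% of measurable genes. Tlr8, Tlr13 and Cd14 lie to the right of the band, which ends at 0.87, and Tlr9 lies at 0.01.

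The promoters of Tlr13, Tlr8 and Tlr9 are shown because the first pair were more than 2-fold higher while Tlr9, another endosomal receptor, was not. Each is the 250 bases before the start in RefSeq, build GRCm38.p6, 5′ to 3′ on the strand of the gene, and for these 3 genes the start is the outer end of the RefSeq gene. Capitals mark matches, on either strand, to any of 4 motifs: GAGGAA (a core of sites for the myeloid factor PU.1), TGANTCA (AP-1), the NF-kB motif and the MEF2 motif.
Tlr13, chrX:106143025-106143274, plus strand: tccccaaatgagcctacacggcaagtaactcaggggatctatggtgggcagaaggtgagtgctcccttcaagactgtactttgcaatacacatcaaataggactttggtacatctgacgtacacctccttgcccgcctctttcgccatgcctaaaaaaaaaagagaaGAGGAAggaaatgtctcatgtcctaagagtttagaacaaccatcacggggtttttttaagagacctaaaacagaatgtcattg
Tlr8, chrX:167264330-167264579, minus strand: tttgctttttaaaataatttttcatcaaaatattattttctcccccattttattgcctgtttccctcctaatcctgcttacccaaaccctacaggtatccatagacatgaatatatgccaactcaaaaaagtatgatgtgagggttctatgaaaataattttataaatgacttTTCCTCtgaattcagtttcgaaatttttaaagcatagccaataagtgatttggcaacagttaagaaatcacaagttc
Tlr9, chr9:106222348-106222597, plus strand: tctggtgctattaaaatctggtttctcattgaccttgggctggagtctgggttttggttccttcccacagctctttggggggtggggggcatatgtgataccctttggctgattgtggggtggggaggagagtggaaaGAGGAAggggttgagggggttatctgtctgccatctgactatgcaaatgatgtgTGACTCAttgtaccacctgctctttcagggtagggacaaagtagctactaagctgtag
GAGGAA was found in the promoters of all 3 genes, on the opposite strand in Tlr8, and is in 23.3% of the 32851 promoters of this length. Tlr9 alone of the 3 held TGANTCA, a motif that reads the same on both strands and is in 6.75% of all promoters. The MEF2 motif (2.92% of promoters) and the NF-kB motif (7.25% of promoters) had no match in these windows. No 2 of the matched motifs overlapped in them. Promoters of 7 of the 10 genes were searched. Tlr1 and Tlr6 had 2 starts each, and both windows were searched. Beyond the 3 shown, Tlr2 held the NF-kB motif and a window of Tlr1 held GAGGAA. The other Tlr1 window and those of Tlr6 had no match. For Tlr1, Tlr2 and Tlr6 the starts used are not the outer end of the RefSeq gene. A match is a description of letters, and the part of any motif in the differences was not tested.

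Cd14 had the largest difference of the 10 genes. CD14 is a surface protein of monocytes and macrophages that hands lipopolysaccharide to the TLR4 complex and also helps other Toll-like receptors. Its gene read 4.90 in wild type and 6.51 in KO-labelled RNA, a 3.05-fold higher value that ranked 39 of 11787. Myd88, the adaptor used by all 8 receptors, read 6.25 and 6.80. At 1.46-fold it fell just short of the 1.5-fold limit (rank 866).

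The parts of the lipopolysaccharide receptor did not differ by equal amounts. Tlr4 differed by 0.18 and Cd14 by 1.61. Ly96, which encodes the MD-2 subunit that holds lipopolysaccharide on TLR4 and was picked after its value was seen, read 4.37 in wild type, just under the floor, and 5.29 in KO-labelled RNA, a difference of 0.93. The related pair Cd180 and Ly86, a TLR4-like receptor of B cells and macrophages and its MD-1 subunit, differed by 1.03 and 0.19, Ly86 being picked after its value was seen.

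Co-receptors, carriers and chaperones of the receptors were all higher in the KO-labelled pool, by amounts from 0.09 to 2.07. At least 1.5-fold higher were 5 of 12, beside 6.45% of all measurable genes. All 12 reached the floor, but Ly96, 1 of the 5, did so in the KO-labelled pool alone. Itgam, another of the 5, is also among the macrophage markers described below. The list's median was 0.44 beside 0.03 over all measurable genes. The integrin chains Itgb2 (7.11 and 9.19, 4.21-fold) and Itgam (6.20 and 7.99, 3.48-fold), which together form complement receptor 3 of myeloid cells, were highest, followed by Cd180 (2.04-fold). Unc93b1, which carries the endosomal receptors out of the endoplasmic reticulum, differed by 0.38 and Cd36, a scavenger receptor that works with TLR2, by 0.09; both were picked after their values were seen.

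Proteases and other proteins that serve the endosomal receptors were mostly higher in the KO-labelled pool. Of 12 measured genes, all at or above the floor in both pools, 9 were at least 1.5-fold higher, beside 6.45% of all measurable genes, and the median difference was 0.83 beside 0.03 over all measurable genes. Atp6v0d2, a subunit of the proton pump that acidifies endosomes and lysosomes, was 4.47-fold higher (6.68 and 8.85). Ctsk and Ctsl, cathepsin proteases of the kind that cut endosomal receptors into their active form, were 3.87-fold and 2.62-fold higher. Rnaset2a and Rnaset2b were not analysed here. These genes also act in lysosomes at large, and the list does not single out receptor processing.

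Genes that carry the signal from the receptors to the nucleus are described next, and with 6.45% of all measurable genes past 1.5-fold upwards and 1.90% downwards their low counts are no result about them. Among the other adaptors none of 4 measurable genes passed 1.5-fold. Pik3ap1, an adaptor that links receptors to PI3 kinase, differed by 0.48, Ticam2, the TRAM adaptor of TLR4, by 0.41 and Tirap, which brings MyD88 to TLR2 and TLR4, by -0.22. Among kinases and ubiquitin enzymes none of 17 measurable genes passed 1.5-fold in either direction, and the list's median was 0.07. The largest were Irak2 (0.43) and Ikbke (0.41), both signalling kinases, and the ubiquitin ligase gene Peli1 (0.40). The list lacks Irak4, Traf3, Ripk1 and Chuk, which were not analysed here.

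Among transcription factors 1 of 11 passed 1.5-fold, near the share of all measurable genes. Irf5, which binds MyD88 and drives inflammatory cytokine genes, read 5.88 and 6.54, 1.57-fold higher. Irf7, which acts below TLR7 and TLR9 in interferon production, went the other way with a difference of -0.47, and Fos differed by 0.46. The NF-kB genes Rela (0.20) and Rel (0.37), picked after their values were seen, were within 1.5-fold.

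Several inhibitors of the pathway were higher. Of 19 measurable inhibitors 5 were at least 1.5-fold higher, beside 6.45% of all measurable genes, and none was 1.5-fold lower. The median was 0.32 over these 19 and 0.41 over the 21 measured. Nfkbie, which retains NF-kB in the cytoplasm, was 2.23-fold higher (4.61 and 5.76), Tnfaip3, the A20 ubiquitin-editing enzyme, 1.77-fold, and Atf3, a repressor of inflammatory genes, 1.69-fold. Irak3, a kinase-like inhibitor of IRAK signalling in macrophages picked after its value was seen, was higher by 0.62. Several of these inhibitors are themselves induced by NF-kB.

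Inflammatory genes that the receptors are known to induce had differences of either sign. Of 25 measured, 10 were below the floor in both pools, a share near the 40.9% of all genes, among them Il1b (3.36 and 3.88) and Il6 (1.38 and 2.09), both picked after their values were seen. Of the 15 above it, 7 were at least 1.5-fold higher, beside 6.45% of all measurable genes, but 5 of these 7 reached the floor in the KO-labelled pool alone, a way of being counted that favours genes that differ. Saa3, an acute phase protein (3.57 and 5.76), and Ccl3, a chemokine (4.32 and 5.72), were of this kind. Lcn2, an iron-trapping protein (4.71 and 5.65, 1.92-fold), was measurable in both. The list's median over all 25 genes was 0.27. Cxcl1 (-0.33) and Cxcl10 (-0.28), picked after their values were seen, were lower by less than 1.5-fold.

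Among other sensors of microbes and damage 1 of 10 measurable genes passed the limit, near the 6.45% of all measurable genes. Sting1, which signals cytoplasmic DNA, was 1.65-fold higher (6.64 and 7.37), while Aim2 differed by 0.49 (from 3.97, below the floor) and Naip2 by 0.47. Of proteins described as endogenous ligands of TLR2 or TLR4, 4 of 8 measurable genes passed 1.5-fold upwards, beside 6.45% of all, and 1 of the 4, Hmgb1 (3.88 and 4.48), reached the floor in the KO-labelled pool alone. The median was 0.54 over the 11 measured genes and 0.57 over the 8. Tnc, the matrix protein tenascin C, was 2.65-fold higher (7.85 and 9.26), and Hsp90b1, also the chaperone of the receptors, and Vcan, the proteoglycan versican, were each 1.52-fold higher. Over the 9 pathway lists together, in which a gene counts once, 31 of 107 measurable genes passed 1.5-fold upwards and 0 downwards, beside 6.45% and 1.90% of all, 7 of the 31 from a wild type value below the floor.

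**Figure D3:**
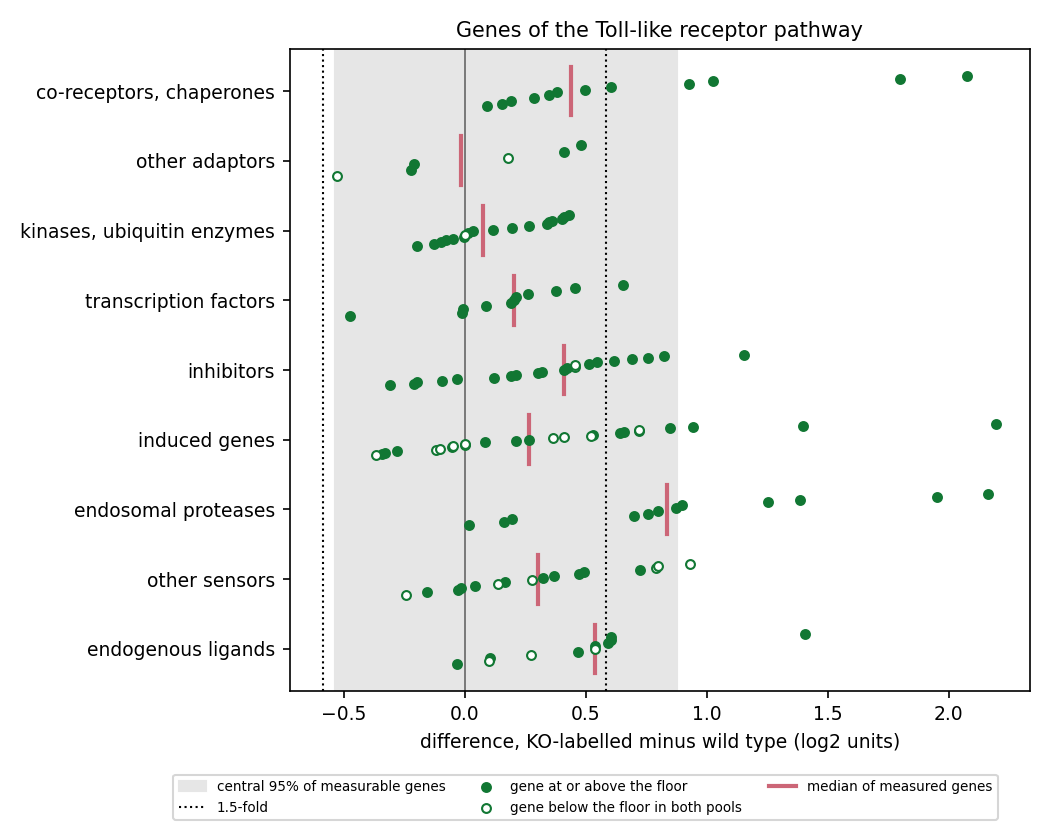
Difference between the pools in log2 units (x axis) for each gene of the 9 pathway lists; filled points reached the floor in at least 1 pool, red bars are the medians of measured genes and the grey band holds the central 95% of measurable genes. The endosomal protease list has the median farthest to the right (0.83), and no gene of the kinase list reaches the dotted 1.5-fold line.

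Macrophage and monocyte markers were higher in the same RNA. Of 23 measured markers all were measurable, 20 were at least 1.5-fold higher (6.45% of all measurable genes were) and none was lower, and the median difference was 0.998 log2 units. The sum of their values after conversion from log2 was 4955 for wild type and 10754 for the KO-labelled pool. The largest differences were those of Msr1, a scavenger receptor (4.31-fold), Itgam (3.48-fold) and Lgals3, which encodes galectin 3 (3.07-fold). The part of macrophage content in the receptor differences was not tested. Of the 10 genes studied, Cd14, Tlr13 and Tlr8 differed by more than the macrophage median, by 0.61, 0.42 and 0.13 log2 units. The other 7 differed by less, Tlr7 by 0.18, Tlr2 by 0.23, Tlr4 by 0.82 and Tlr9 by 0.99 log2 units less.

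Most markers of B, T and NK cells, plasmacytoid dendritic cells and neutrophils, which also express Toll-like receptors, were below the floor. Of all genes, 40.9% were below it in both pools. None of 6 measured B cell markers and none of 8 T and NK cell markers reached the floor in either pool. Of 3 measured markers of plasmacytoid dendritic cells, which use TLR7 and TLR9, Siglech alone reached it (4.38 and 4.53). Of 12 neutrophil markers Csf3r alone did (4.78 and 5.16), and Ly6g read 1.87 and 1.96. Of 8 conventional dendritic cell markers, 5 were measurable, near the share of all genes. Flt3, 1 of the 5, reached the floor in the KO-labelled pool alone (4.23 and 4.47). Itgax, shared with macrophages, was 2.89-fold higher, while Zbtb46 differed by -0.32 and Batf3 by -0.29. Flt3 (0.24) and Ccr7 (0.22), picked after their values were seen, were within 1.5-fold. Of 6 mast cell markers Mcpt4 (-0.33), Kit (0.22) and Tpsb2 (-0.10) were measurable and within 1.5-fold.

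Of lists of other tissues, none had a median past 1.5-fold. The endothelial median was -0.02, with Vwf 1.79-fold higher, Kdr at -0.29 and Emcn at 0.23. The fibroblast median was 0.08, led by Col6a3 (0.34), Col1a1 (0.23) and Col1a2 (0.22). All 10 muscle fibre markers were lower, with a median of -0.17, and Myh2 (1.53-fold lower) was followed by Ryr1 (-0.31) and Actn3 (-0.29). Their values ran from 9.40 to 12.56 in wild type and from 8.78 to 12.52 in KO-labelled RNA. These lie well above the floor, so muscle fibre RNA was present in both pools.

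**Figure D4:**
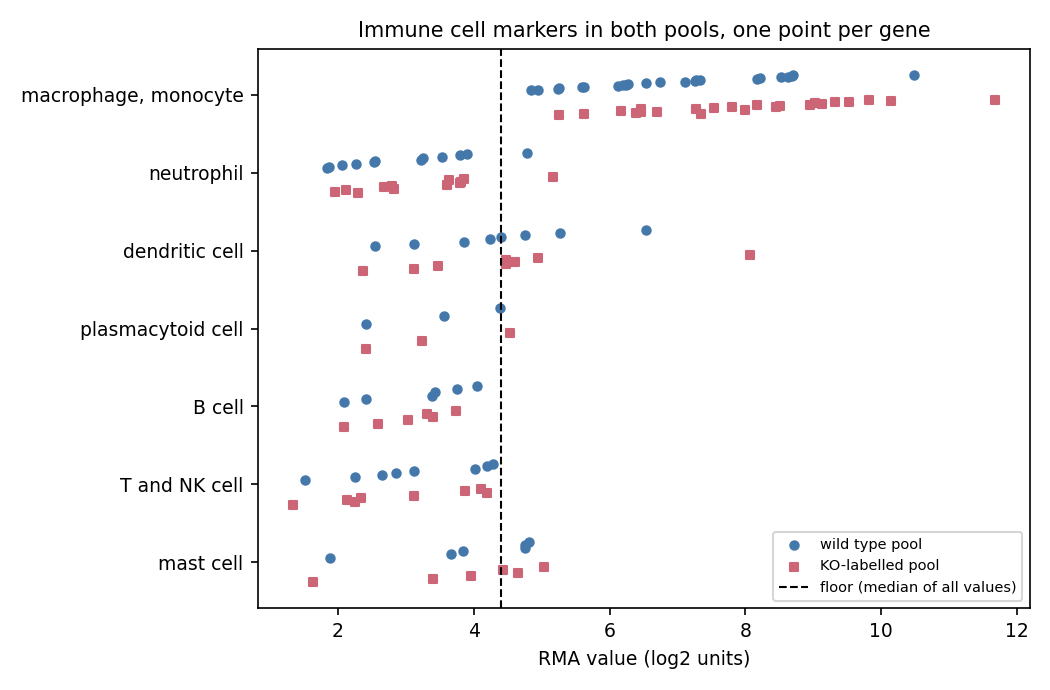
Log2 RMA values (x axis) of immune cell markers, 1 point per gene, in the wild type pool (circles) and the KO-labelled pool (squares), with the floor of 4.395 as a dashed line. All macrophage markers lie right of the floor, whereas B cell and T and NK cell markers lie left of it in both pools.

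The 3 receptors with the largest differences, Tlr7, Tlr8 and Tlr13, are also the 3 of the 10 genes on the X chromosome. Both sexes were used, the labels do not give the sexes in each pool, and Xist, the RNA of the inactive X chromosome in females, read 6.72 in wild type and 8.03 in KO-labelled RNA, 2.49-fold higher. Of the Y-linked genes, Eif2s3y differed by -0.31, Uty by 0.06 and Kdm5d, picked after its value was seen, by -0.01. Kdm6a, Kdm5c, Ddx3x and Eif2s3x, X-linked genes with copies on the Y chromosome that were picked after their values were seen, were higher by 1.21-fold to 1.29-fold. Of 348 other measurable X-linked genes, 6.90% passed 1.5-fold upwards, beside 6.45% of all measurable genes, and their median difference was 0.09. The differences of Tlr7 (0.82), Tlr8 (1.13) and Tlr13 (1.42) were larger than that median. These 3 were named as the largest among the receptors, so no conclusion is drawn from that. The part of a different sex mix in their differences was not tested.

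Genes next to the receptors in the RefSeq annotation did not all move with them. Tlr7 and Tlr8 are neighbours, and the protein-coding genes on either side, Prps2 and Tmsb4x, differed by 0.55 and 0.53. Tlr13 lies between Atp7a (0.25) and Pgk1 (-0.18). Tlr1 and Tlr6 are also neighbours and differed by nearly the same amount. The neighbour of Tlr2 is Sfrp2, which encodes a secreted WNT antagonist and read 6.90 and 9.20, a larger difference (2.30) than that of Tlr2, while Tmem131l on the other side differed by 0.02. The neighbours of Tlr4, Tlr9, Cd14 and Myd88, and the outer ones of Tlr1 and Tlr6, differed by -0.25 to 0.25. All neighbours were picked by position alone.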

How the data were processed

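The deposited table holds log2 values for 35557 probe sets on 2 arrays, which the authors computed by RMA; per the submitters' processing notes the program was Affymetrix Expression Console, its version being unstated in the labels. RMA corrects background, normalizes by quantiles and summarises probe sets, so a change shared by most genes cannot be seen. Values were used as deposited. Of the probe sets 21789 had 1 gene symbol in the platform annotation, 1621 several and 12147 none; those with 1 were used, the highest mean per gene. Differences and counts were computed with pandas 2.3.3 and numpy 2.4.6 under Python 3.11.15, and the counting was tested on simulated data. With 1 array per genotype, the number of arrays limits the precision. The genes studied, 24 gene lists and the limits were chosen with earlier results of these data known. Named from each list are up to 3 measurable genes of largest difference. Most others are said to be picked after their values were seen. Hmgb1, Ly6g, Il10 and Ccl4 were also named for their values, which were low or equal in both pools. Tlr3 and Tlr12 were named as the other receptors measured. Cgas and Sting1 were matched through RefSeq synonyms. Chromosomes, neighbours and promoters come from RefSeq tables of GRCm38.p6; the build behind the probe sets is not given. Alternatives were median-centring, loess removal (span 0.3, statsmodels 0.14.6), other probe set rules, floors, fold limits and receptor groupings.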

Additional observations from a re-analysis of the deposited data

How the results depend on the processing

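With no replicates, a value was said to move when it shifted by at least 0.1 log2 units, and a count when it changed by over 1.5 times. With the loess trend on mean expression removed, the surface median was 0.32 and the gap of surface minus endosomal receptors -0.66. With means they were 0.34 and -0.50, and the endosomal value 0.84. With measurable receptors alone the surface median was 0.47 and the gap -0.50. With Tlr3 and Tlr12 added the endosomal median was 0.51 and the gap -0.30. The gap kept its direction in all of these alternatives. Their own construction (other genes or another summary) moved the values, except for the loess removal. There the endosomal median stayed at 0.97, and the surface median, set by Tlr1 and Tlr6 below the floor, moved. The cause of that shift was not tested. A 2-fold limit left 3 of the 8 measurable genes studied called (Tlr8, Tlr13 and Cd14) in place of 5, beside 1.7% of all measurable genes. A floor at the 75th percentile (6.18) also left 3 (Tlr2, Tlr13 and Cd14), beside 8.40% of 6259 genes at that floor, but all 3 reached it in the KO-labelled pool alone, so that count supports nothing. At 2-fold, 200 of 11787 measurable genes and 11 of 107 measurable pathway genes were higher, in place of 760 and 31. At a limit lower than 1.5-fold these counts were 1971 and 55. Over median-centring, loess removal and both other probe set rules, 38 of 40 recomputed differences of the 10 genes moved by less than 0.1; the other 2 were Tlr1 (0.31) and Tlr6 (0.33) with the loess trend removed. Tlr9 was -0.02 with that trend removed. No paired analysis was possible because each genotype has 1 array. The signal near background limits Tlr1 and Tlr6.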

Other observations

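Some low genes read exactly the same in both pools. Of 8151 genes below the floor in both, 925 (11.3%) had identical values to within 0.000001, against 254 (2.15%) of the measurable ones. None of the 10 genes studied was among them. Of the 25 induced genes, Il10 (2.39) and Ccl4 (3.82) were, both below the floor.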
